A study of Homo sapiens with 18 samples.

Results

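Whole transcriptome RNAseq values of HCT116 cells grown to high density were compared with those of the same line at low density, gene by gene, to ask which functions rose and which fell. The comparison set the 3 libraries of day 5, at 250% confluency, against the 3 libraries of day 3, at 50% confluency. Tested were genes that reached a value of 10 in 3 or more of these 6 libraries, which kept 20129 of the 38055 genes in the table. The 6 libraries are part of a series of 18, which also holds day 7 and small RNA libraries not used here. HCT116 is an epithelial line from a human colorectal carcinoma, and all cells were wild type, untreated and grown in McCoy's 5A medium with serum. Both groups shared line, genotype and medium and differed in day and density together. Density, time since seeding and what cells had done to their medium can therefore not be told apart. The study's protocol for density cultures supplied fresh medium daily from shortly after seeding, which its methods do not repeat for the RNAseq cultures. The labels call the replicates biological, and all come from a single cell line.

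Dense cultures of epithelial cells form more contacts and use up nutrients and oxygen sooner than sparse cultures. Hypoxia-inducible factors (HIFs) are made of an oxygen-sensitive alpha subunit and the stable partner ARNT. With oxygen at hand, prolyl hydroxylases of the EGLN family mark the alpha subunit and VHL sends it for destruction, and with little oxygen the dimer binds short DNA elements and switches on genes for glycolysis, blood vessel growth and mitophagy. Dividing cells make ribosomal proteins, replication factors and histones in large amounts, the last in S phase only.

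The library values are reads divided by a single factor per library, called normalised values here. The recovered reads on genes ranged from 27470978 to 56689369 per library. The 10 genes with most reads took 11.8% to 12.9% of the reads on day 3 and 8.73% to 9.03% on day 5. Over 11860 well measured genes, the correlation of log2 values across genes was 0.990 to 0.997 within a day and 0.896 to 0.913 between days, and the first principal component, with 92.4% of the variance, separated the days.

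Promoter windows of some of the genes that moved most are shown first, because the motifs in them are the ones known to be bound by HIF, by the trimeric factor NFY and by the cell cycle complexes that act on the cell cycle homology region. Capitals mark the motif, each line reads in the direction of the gene, and every window lies before the start that RefSeq gives. The GENCODE span of a gene can begin earlier, so a window can lie inside it, as those of ANGPTL4 and ALDOC do. The first set holds the HIF core ACGTG, or CACGT where it lies on the other strand, for HIF targets and glycolytic genes that rose.
ANGPTL4: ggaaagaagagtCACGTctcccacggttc
DDIT4: agaacgttgcttACGTGcgcccggagtcc
ANKRD37: cagtgtttgtgtACGTGcggccgtggcgg
BHLHE40: cacagggtagaaCACGTagctccaaccca
ALDOC: ccccggaggagtCACGTagctctgcgaca
ENO2: acccgcgctcgtACGTGcgcctccgccgg
HK2: aatgggcgtgcgCACGTcactgatccgga
GPI: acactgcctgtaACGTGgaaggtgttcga
The second set holds the NFY motif CCAAT in histone genes that fell.
H2BC13: cacggataattaCCAATcagcagagacct
H2AC13: ataaaacgtaagCCAATcgcacagcttcc
H3C4: tggttgttctagCCAATcaaatagcgtta
The third set holds the cell cycle homology region TTTGAA, or TTCAAA on the other strand, in 2 genes of the mitosis list, NCAPD2, which rose, and ZWINT, which fell.
NCAPD2: cagccgttgagaTTTGAActcggtatttgt
ZWINT: gtcgactgtgacTTCAAAgtaatcttaggg
In RefSeq coordinates of GRCh38.p14, the window of ANGPTL4 lies at chr19:8363909-8363937 on the plus strand, with the motif ending 229 bases before the start. The window of DDIT4 lies at chr10:72273787-72273815 on the plus strand, 120 bases before the start, and that of ALDOC at chr17:28576907-28576935 on the minus strand, 23 bases before it. H2BC13, at chr6:27807989-27808017 on the minus strand, and H2AC13, at chr6:27808093-27808121 on the plus strand, are read in opposite directions from a shared stretch, so their windows are not independent. The window of NCAPD2 lies at chr12:6493945-6493974 on the plus strand and that of ZWINT at chr10:56361273-56361302 on the minus strand.

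The RefSeq table gave a promoter of 300 bases, from 250 before to 50 after the start, for 10624 of the 13132 tested protein-coding genes (80.9%). Searched on both strands, the HIF core stood in 60.0% of the promoters of HIF targets (15 of 25) and in 47.1% of those of glycolytic enzymes (8 of 17), beside 26.4% of all 10624. Among all protein-coding genes that rose it stood in 24.8% of promoters and among those that fell in 28.8%, so the core was not more frequent among genes that rose as a whole. Matches inside the longer E-box of MYC and related factors count too. The cell cycle homology region stood in 69.0% of promoters of mitosis and spindle genes (40 of 58), beside 9.64% of all promoters. The E2F motifs TTTGGCGC and TTTCCCGC stood in 39.5% of promoters of replication genes (17 of 43), beside 3.61% of all. CCAAT stood in 88.0% of histone promoters (22 of 25), 83.3% of cholesterol synthesis promoters (15 of 18) and 84.6% of promoters of endoplasmic reticulum (ER) chaperone and unfolded protein response genes (22 of 26), beside 36.7% of all. The histone and the cholesterol genes moved in opposite directions. Windows are shown only for genes with a match whose flanks also lie within the 250 bases before the start. KDM4B, which rose, held the HIF core, and CENPN, KIF18A and MAD2L1, which fell, held the cell cycle homology region. None of these matches gave such a window. Among the largest movers of the same lists, EGLN3, PLOD1, HK1, PFKP and PKM held no ACGTG or CACGT. H4C8 held no CCAAT on either strand, and PTTG1, CCNB1 and CDC25B held no TTTGAA or TTCAAA. Other spellings of these motifs were not searched for. A match is a description of the letters in the window and not a measure of binding.

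Between the days, 12055 of 20129 genes differed at an adjusted p under 0.05 by limma, which is 59.9% of those tested. Of these, 6270 were higher on day 5 (31.1% of those tested) and 5785 were lower (28.7%), and the median log2 fold change over all tested genes was 0.01. Each fold change here is day 5 against day 3 on the log2 scale of value + 1. A change of at least 2-fold was called for 3696 genes (18.4%), of which 2117 were higher and 1579 lower. The largest changes were mostly rises, with 244 genes at least 4-fold higher and 72 at least 4-fold lower, and 42 at least 8-fold higher and 5 at least 8-fold lower. All 3 values of a day lay beyond all 3 of the other for 13092 genes, or 65.0%. The 192 genes that passed the minimum through day 5 alone and the 186 that passed through day 3 alone had to differ and hold 161 and 151 of the calls. With calls this common, a list of genes stands out only by a lopsided count or a large median. Most lists hold protein-coding genes, and of the 13132 of these tested 40.4% were higher and 30.4% lower, with a median of 0.12. In bulk RNA, fewer cells of a kind and less RNA per cell cannot be told apart. In most lists where 5 or fewer members went their own way, these are named, and such genes were chosen after their values were seen.

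**Figure D1:**
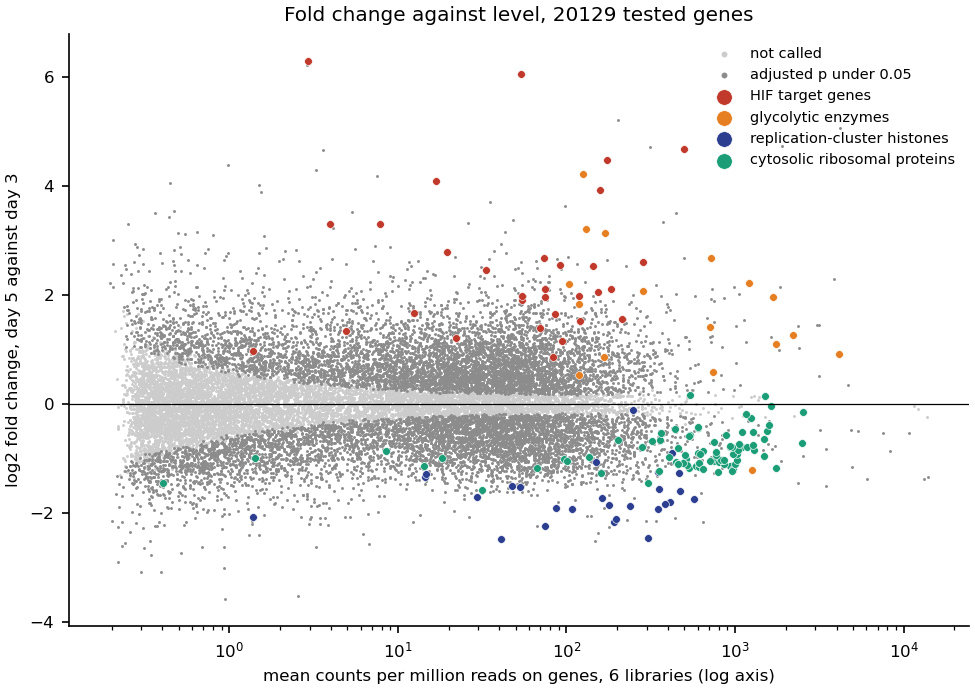
Each point is 1 of 20129 tested genes, with its mean CPM (counts per 1000000 reads on genes) over the 6 libraries (log axis) against its log2 fold change, day 5 against day 3; dark grey points have an adjusted p under 0.05. HIF target genes (red) and glycolytic enzymes (orange) lie above 0 save for 1 glycolytic gene, and histones (blue) and most cytosolic ribosomal proteins (green) lie below it.

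Fold change also went with base composition and length, and these values belong beside every list. Across the 13132 protein-coding genes, Spearman's rho of fold change with transcript GC content was 0.543 and with transcript length 0.224, given as descriptions across genes, which are not replicates. With genes ranked by GC content and cut into 10 equal bins, in the lowest bin the median was −0.51, with 108 genes higher and 914 lower, and in the highest bin it was 0.70, with 909 higher and 65 lower. The gap of 1.21 between these medians was 0.983 to 1.39 in each of the 9 pairings of a day 5 with a day 3 library and 0.066 to 0.298 between replicates of a day. In the bin of shortest transcripts, 207 to 1297 bases long, 182 genes rose and 712 fell, and in the longest bin 717 rose and 272 fell. The part of base composition and length in the changes of single lists was not tested, but a median corrected for both within each library is given where it differs by more than 1.5-fold from the uncorrected one or changes sign, and is called the corrected median. Corrected, 10584 of 19288 genes differed, 5119 higher and 5465 lower, of which 2018 did so by at least 2-fold.

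**Figure D2:**
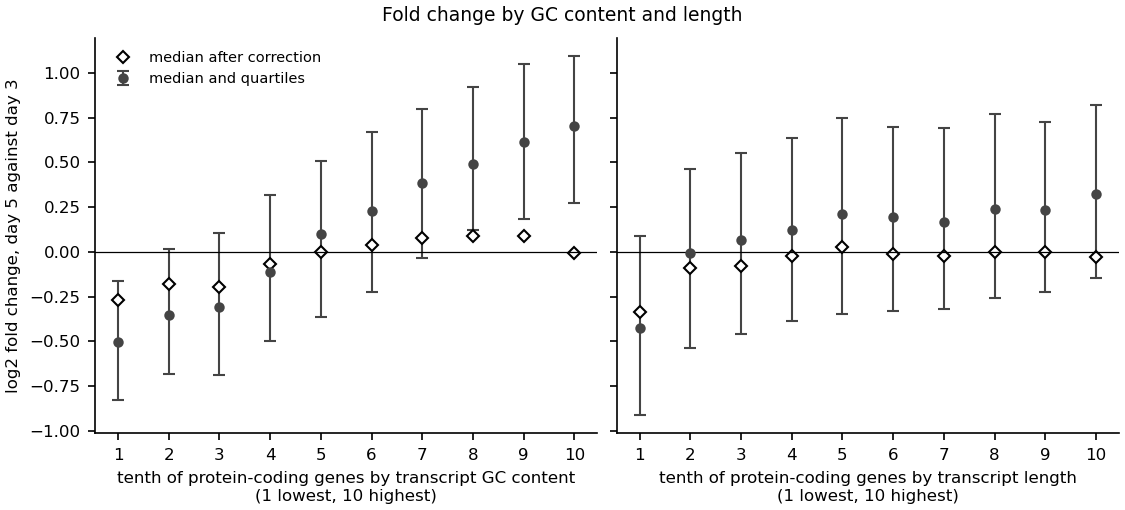
Median log2 fold change, day 5 against day 3 (filled points, with quartiles as bars), in 10 equal bins of the 13132 tested protein-coding genes by transcript GC content (left) and transcript length (right), and the median after correction for both (open diamonds). The medians climb from −0.51 to 0.70 with GC content, and the lowest median by length is that of the shortest transcripts.

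HIF targets outside glycolysis had the largest median among the lists of functions. Of 33 genes in the table, 31 were tested, 31 rose and none fell, with a median log2 fold change of 2.11, and their share of the reads on genes went from 0.0938, 0.0917 and 0.0850% on day 3 to 0.473, 0.525 and 0.524% on day 5. The count and the median include CA9, which passed the minimum through day 5 alone and so could only rise. ANGPTL4, a secreted inhibitor of lipoprotein lipase (ENSG00000167772, GRCh38 chr19:8363289-8374370), had normalised values of 39.5, 50.7 and 73.7 on day 3 and 3259, 3744 and 3862 on day 5 (log2 fold change 6.07, SE 0.17, adjusted p = 2.83e-12). All day 5 values of ANGPTL4 lay far above those of day 3, and it was the protein-coding gene with the largest rise among those with a mean of at least 10 CPM. NDRG1, a stress-induced cytoplasmic protein, stood at 1211, 1208 and 1429 on day 3 and 29429.9, 34149 and 35438 on day 5 (log2 fold change 4.68, SE 0.091, adjusted p = 8.23e-14). DDIT4, which restrains the growth kinase complex mTORC1, stood at 496, 493 and 529 on day 3 and 10577, 11647 and 11961 on day 5 (log2 fold change 4.49, SE 0.076, adjusted p = 3.1e-14). ANKRD37, a small ankyrin repeat protein, stood at 57.1, 63.1 and 66.6 on day 3 and 909.9, 1138 and 1229 on day 5 (log2 fold change 4.10, SE 0.13, adjusted p = 9.2e-12). BHLHE40, a transcriptional repressor that also acts on the clock, stood at 554, 618 and 873 on day 3 and 9729, 10707 and 10061 on day 5 (log2 fold change 3.92, SE 0.13, adjusted p = 1.11e-11). None of these groups of values overlapped between days.

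The other HIF targets rose as well. CA9, a membrane carbonic anhydrase often used as a marker of hypoxia, had values of 0.878, 0.618 and 4.25 on day 3 and 204, 178 and 214 on day 5 (adjusted p = 6.32e-09). Its day 3 values stand for 1 to 3 reads per library, so no fold change is given, and it was chosen after its values were seen. CA9 passed the minimum through day 5 alone and so had to differ. VEGFA, the growth factor for blood vessels, was at 1469, 1442 and 1371 on day 3 and 4597, 4703 and 4181 on day 5 (log2 fold change 1.65, SE 0.075, adjusted p = 3.18e-10). The mitophagy receptors BNIP3 and BNIP3L rose by 1.96 and 2.53 on the log2 scale. P4HA1 and PLOD2, hydroxylases that prepare collagen in the ER, rose by 2.06 and 1.98. The smallest rise was that of FAM162A, at 0.87 (adjusted p = 4.16e-06). VEGFA, P4HA1, PLOD2 and FAM162A were also chosen after their values were seen.

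Glycolytic enzymes rose along nearly the whole pathway. Of 17 genes, 16 rose and 1 fell, the median was 1.83, and the pathway's share of reads went from 0.892, 0.936 and 1.04% on day 3 to 2.10, 2.21 and 2.21% on day 5. HK2, the hexokinase that traps glucose in the cell, stood at 957, 1334 and 1337 on day 3 and 9886, 10468 and 11203 on day 5 (log2 fold change 3.13, SE 0.11, adjusted p = 3.41e-11). GPI, the isomerase of the second step, stood at 5617, 6449.9 and 8056 on day 3 and 41585, 43514 and 43332 on day 5 (log2 fold change 2.69, SE 0.11, adjusted p = 1.37e-10). ALDOC, an aldolase best known from brain, stood at 468, 435 and 411 on day 3 and 8344, 8868 and 7362 on day 5 (log2 fold change 4.22, SE 0.086, adjusted p = 9.66e-14). ENO2, the enolase of neurons, stood at 851, 900.1 and 859 on day 3 and 7282, 8249.6 and 8825 on day 5 (log2 fold change 3.22, SE 0.081, adjusted p = 9.83e-13). In each of these genes every day 5 library exceeded every day 3 library. The smallest rises were those of PFKM, at 0.54, and TPI1, at 0.58. The gene that fell was LDHB, the lactate dehydrogenase chain that favours the making of pyruvate, at 59472, 57515 and 70918 on day 3 and 26593, 26392 and 28053 on day 5 (log2 fold change −1.21, SE 0.10, adjusted p = 9.72e-08), whereas LDHA rose by 1.10.

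Entry of glucose, exit of lactate and the gate to the mitochondrion moved unevenly. Of 16 genes, 9 rose and 4 fell, with a median of 0.88 and a corrected median of 0.35. SLC2A1, the main glucose transporter of epithelial lines, stood at 1989.5, 2494 and 2539 on day 3 and 22499, 22142 and 26022 on day 5 (log2 fold change 3.34, SE 0.099, adjusted p = 5.18e-12). SLC2A3, a transporter with high affinity for glucose, stood at 313, 273 and 312 on day 3 and 2501, 2566 and 2944 on day 5 (log2 fold change 3.15, SE 0.092, adjusted p = 4.29e-12). PFKFB4, which sets the level of the glycolysis activator fructose 2,6-bisphosphate, stood at 499.6, 493 and 503 on day 3 and 5883, 6194 and 6624 on day 5 (log2 fold change 3.64, SE 0.074, adjusted p = 9.66e-14). PDK1, the kinase that shuts pyruvate dehydrogenase, stood at 1392, 1139 and 972 on day 3 and 6420.2, 6923 and 7205 on day 5 (log2 fold change 2.56, SE 0.11, adjusted p = 1.63e-10). The lactate exporter SLC16A3 rose by 1.83, while SLC16A1, which moves lactate in either direction, fell by 1.00. Both subunits of the mitochondrial pyruvate carrier fell, MPC1 by 1.29 and MPC2 by 0.99, and so did PDP1, the phosphatase that opposes PDK1, by 0.57.

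The transcripts of the HIF system itself split. Of 10 genes, 7 rose and 2 fell (median 0.70, corrected 0.17). HIF1A, the best known alpha subunit, was lower on day 5, at 5836, 6526 and 7051 on day 3 and 4179, 4101 and 4255 on day 5 (log2 fold change −0.63, SE 0.080, adjusted p = 7.18e-06). EPAS1, the alpha subunit also called HIF2A, was higher, at 377, 508 and 513 on day 3 and 1715, 1882 and 1960.2 on day 5 (log2 fold change 2.00, SE 0.11, adjusted p = 2.19e-09). The 2 genes thus moved in opposite directions with no overlap between the days. ARNT, their partner, rose by 0.73 (adjusted p = 2.09e-06). Of the hydroxylases, EGLN3 rose by 2.79 and EGLN1 by 1.53, while EGLN2 fell by 0.28, but was not called without day 3 replicate 1 or 2 or day 5 replicate 1, 2 or 3, at −0.29 to −0.23, nor with library totals. VHL rose by 0.20 (adjusted p = 0.0265), and was not called without day 3 replicate 1 or day 5 replicate 1, 2 or 3, at 0.16 to 0.21, nor once corrected. Messenger RNA does not show the amount of HIF protein, which is set mainly by its breakdown.

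Most demethylases of histones and DNA that need oxygen as a substrate rose. Of 24 genes, 20 rose and 1 fell, the latter being RIOX2, which fell by 0.84 (median 0.75, corrected 0.45). KDM4B, which takes methyl groups off histone H3 lysine 9, stood at 659, 709 and 697 on day 3 and 4210.0, 4495 and 4501 on day 5 (log2 fold change 2.67, SE 0.073, adjusted p = 2.83e-12). KDM3A, of similar activity, rose by 2.11, KDM5B, which acts on lysine 4, by 1.86, and KDM6B, which acts on lysine 27, by 1.81. KDM3A and KDM4B are members of the HIF target list too.

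**Figure D3:**
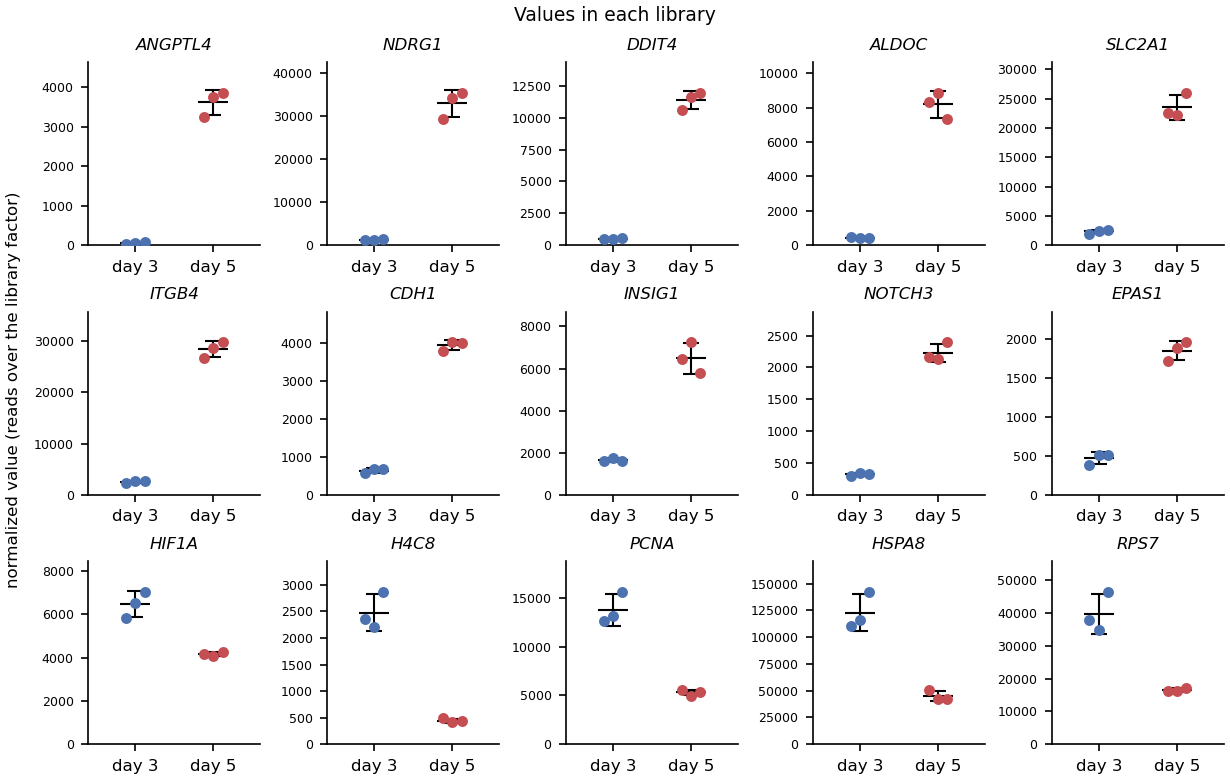
Normalised values (reads over the library's factor) of 15 genes in each of the 6 libraries, with the mean and SD of each day (n = 3) as bars. For the 10 genes of the first 2 rows all day 5 values exceed those of day 3, and for the 5 genes of the last row all lie below them.

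Nuclear genes of the respiratory chain fell together. Complex I had 31 of 38 subunit genes lower and 2 higher, among them NDUFV1 at 0.57 (median −0.82), and all 8 of its tested assembly factors fell (median −1.10). In complexes II and III, 11 of 14 fell and SDHA and UQCRC1 rose, by 0.74 and 0.47 (median −1.03, corrected −0.67). Among nuclear genes of cytochrome c oxidase 10 of 12 fell and none rose (median −1.0, with 1 higher once corrected), and among those of ATP synthase 16 of 19 fell and ATP5F1D rose by 0.41, a rise that turned to −0.17 and was not called once corrected (median −1.14, corrected −0.69). NDUFB3, a small membrane subunit of complex I, stood at 3172, 3040.1 and 3749.5 on day 3 and 1166, 1268 and 1217 on day 5 (log2 fold change −1.44, SE 0.086, adjusted p = 4e-09). UQCRQ, a small subunit of complex III, stood at 4717, 4395 and 6425 on day 3 and 1804, 1836 and 1687 on day 5 (log2 fold change −1.52, SE 0.11, adjusted p = 2.98e-08). COX7B, a small subunit of cytochrome c oxidase, stood at 6445, 6171 and 7975 on day 3 and 2479, 2472 and 2488 on day 5 (log2 fold change −1.46, SE 0.090, adjusted p = 5.48e-09). ATP5F1E, the smallest subunit of the ATP synthase head, stood at 7617, 7142 and 9372 on day 3 and 2784, 2608 and 2762 on day 5 (log2 fold change −1.56, SE 0.093, adjusted p = 4.05e-09). No day 5 value reached a day 3 value in these genes.

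The mRNAs that the mitochondrion makes itself had a median nearer to 0. Of 13 mitochondrially encoded mRNAs, 8 fell and MT-ND5 rose, by 0.35, with a median of −0.47. Once corrected 4 were higher and 3 lower, with a median of 0.05. MT-ND3, a complex I subunit, fell most, at 46833, 50542 and 51990.2 on day 3 and 19989, 22126 and 21468 on day 5 (log2 fold change −1.23, SE 0.089, adjusted p = 2.43e-08). MT-CO3 (−0.53) was not called without day 5 replicate 1, at −0.49, nor once corrected. MT-ND5 was not called without day 3 replicate 2 or day 5 replicate 1, 2 or 3, at 0.29 to 0.40. Genes of the mitochondrial chromosome together held 6.76, 6.96 and 7.24% of reads on day 3 and 5.46, 6.13 and 5.78% on day 5. Of 12 genes that copy and transcribe mitochondrial DNA, 4 rose and 5 fell (median −0.13, corrected −0.29): POLRMT, the mitochondrial RNA polymerase, POLG, TWNK and PPRC1 rose, POLRMT most, by 1.26, while SSBP1, TFB2M, TFAM, MTERF1 and NRF1 fell, SSBP1 most, by 1.13. Of 17 enzymes of the citric acid (TCA) cycle 7 rose and 9 fell (median −0.21, −0.13 without day 3 replicate 3), OGDH rising by 1.45 and SDHD falling by 1.11. Of 15 genes of mitochondrial fatty acid oxidation 4 rose and 7 fell (median −0.10, corrected −0.06, −0.18 to −0.01 without 1 library). The risers were CPT1A, which admits fatty acids (0.96), ACADVL (1.07), ACADS (0.65, not called once corrected) and CPT2 (0.55).

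Cytosolic ribosomal protein genes fell nearly as a whole. None of 84 tested cytosolic ribosomal protein genes rose and 78 fell (median −0.94, corrected −0.62), and their share of reads went from 7.78, 7.18 and 8.52% on day 3 to 4.79, 4.89 and 4.84% on day 5. RPS7, of the small subunit, stood at 37790.1, 34840.5 and 46554 on day 3 and 16204, 16318 and 17156 on day 5 (log2 fold change −1.25, SE 0.10, adjusted p = 9.3e-08). RPL39, of the large subunit, stood at 7667, 6464 and 10195 on day 3 and 3126, 3347 and 3418 on day 5 (log2 fold change −1.27, SE 0.12, adjusted p = 4.37e-07). Each ribosomal protein gene has many processed pseudogenes with near-identical sequence, so reads can be split among copies. Mitochondrial ribosomal proteins followed, with 61 of 75 lower and MRPL10, MRPL2 and MRPS2 higher, at 0.54, 0.39 and 0.25 (median −0.85). MRPL2 was not called without day 3 replicate 1 or day 5 replicate 1 or 3, at 0.22 to 0.37. MRPS2 was not called without day 3 replicate 1 or 2 or day 5 replicate 1, 2 or 3, at 0.15 to 0.28, nor by DESeq2, and turned to −0.02 once corrected. Ribosome biogenesis factors had 21 of 31 lower (median −0.50), NOP10, of the box H/ACA particles that modify ribosomal RNA, falling by 1.34; the 4 that rose were RRP12, FBL, NOP14 and NOLC1, RRP12 most, by 0.66, though it was not called once corrected. RNA polymerase I and its factors had 15 of 20 lower (median −0.68), while POLR1A, the largest subunit, rose by 0.63, with UBTF and TAF1C at 0.33 and 0.22. Once corrected, POLR1A and UBTF were not called and TAF1C fell, at −0.05, −0.17 and −0.48, and UBTF was not called without day 5 replicate 1, at 0.30 and TAF1C not called without day 3 replicate 2 or day 5 replicate 1 or 2, at 0.18 to 0.24.

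Translation factors and tRNA synthetases were mixed. Of 39 initiation and elongation factors 10 rose and 23 fell (median −0.47). EEF2, which moves the ribosome along the message, rose by 1.44 (adjusted p = 6.69e-07), and EIF4G1, the scaffold of cap binding, by 1.16 (adjusted p = 9.4e-07), whereas EEF1E1 fell by 1.42. Of 20 cytosolic tRNA synthetases 5 rose and 9 fell (median −0.18, corrected −0.28, −0.27 without day 3 replicate 1 and −0.06 without day 3 replicate 3). VARS1 was the largest riser, at 1.24, ahead of QARS1, AARS1 and FARSA among others, and TARS1 the largest faller, at −1.12. Proteasome subunits fell in 30 of 35 cases (median −0.82), with PSMA3 at −1.54, and PSMD3 and PSMD2 rose by 0.49 and 0.46, PSMD3 not being called once corrected.

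The MYC network moved the other way from the ribosome. MYC, a driver of ribosome production, stood at 3408, 4048 and 4665 on day 3 and 8201, 7955 and 8478 on day 5 (log2 fold change 1.03, SE 0.098, adjusted p = 3.42e-07), so each day 5 value was higher. Of 12 genes of the MYC, MAX and MXD network, 8 rose and none fell (median 0.85), and once corrected 6 were higher and 2 lower (median 0.17). Several of the risers oppose MYC by binding its partner MAX: MXD1 rose by 1.80, MNT by 1.70, MXD4 by 1.47 and MXI1 by 1.39.

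Histone genes of the replication clusters had the lowest median of all lists. Their transcripts lack poly(A) tails and peak in S phase. Of 27 tested, 26 fell and none rose (median −1.74), and their share of reads went from 0.836, 0.770 and 1.03% on day 3 to 0.326, 0.295 and 0.296% on day 5. Among protein-coding genes with a mean of at least 10 CPM and no overlap between the days, the 12 largest falls were all those of histone genes. H4C8 (ENSG00000158406, GRCh38 chr6:26277609-26285638) stood at 2367, 2203 and 2872 on day 3 and 486, 410.5 and 431 on day 5 (log2 fold change −2.48, SE 0.10, adjusted p = 1.54e-10). H3C12, an H3 gene of the cluster on chromosome 6, stood at 16851, 15135 and 24167 on day 3 and 3801, 2999 and 3182 on day 5 (log2 fold change −2.47, SE 0.14, adjusted p = 2.34e-09). H2BC13 stood at 3958, 3612 and 5771 on day 3 and 1026, 851 and 906 on day 5 (log2 fold change −2.23, SE 0.14, adjusted p = 4.63e-09), and its neighbour H2AC13 fell by 2.16. The day 3 values lay above all day 5 values in each of these genes. The other 8 of the 12, H3C4, H4C3, H2BU1, H3C13, H2BC11, H2AC21, H2AC6 and H2AC11, fell by 1.80 to 2.11. H2BC21, which can be made with a poly(A) tail outside S phase, was the exception and was not called, at −0.10 (adjusted p = 0.656), though it was called without day 3 replicate 1, at −0.42. Histone genes are near copies of each other, so a read can fit more than 1 of them and single values are less certain than the sum.

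Replication genes fell with the histones. Of 50 genes of DNA replication licensing and forks, 38 fell and 7 rose (median −0.81). PCNA, the sliding clamp, stood at 12599.9, 13117 and 15626 on day 3 and 5552, 4966 and 5387 on day 5 (log2 fold change −1.37, SE 0.090, adjusted p = 9e-09). GMNN, which blocks a repeat of licensing, stood at 3185, 3282 and 3656 on day 3 and 1127, 1081 and 1216 on day 5 (log2 fold change −1.56, SE 0.080, adjusted p = 1.03e-09). RPA3, which binds single-stranded DNA, fell by 1.48, and POLE2, of the leading strand polymerase, by 1.42. Of 27 genes that supply deoxynucleotides 20 fell and 5 rose (median −0.53), the risers being CAD, IMPDH1, TK1, TK2 and IMPDH2, CAD most, at 0.76, though it was not called once corrected, at 0.00. ADSL, of purine synthesis, fell by 1.17. The small subunit of ribonucleotide reductase, RRM2, was not called, at 0.04, but was once corrected, at 0.21.

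Genes of the G1/S step were divided. Of 25 cyclins, kinases and E2F genes 13 fell and 5 rose (median −0.27, −0.16 without day 3 replicate 3). CCNE2, a cyclin of S phase entry, fell by 1.50 (adjusted p = 2.04e-09) and SKP2, which marks inhibitors for breakdown, by 1.15. CCND1, the growth factor-responsive cyclin D1, rose, at 8495, 11298 and 12109 on day 3 and 25852, 23371 and 24870.3 on day 5 (log2 fold change 1.23, SE 0.11, adjusted p = 2.62e-07), as did RBL2, RB1, CDK6 and TFDP2, RBL2 most, by 0.72. Of 8 inhibitors of cyclin-dependent kinases 5 rose and 2 fell (median 0.53). CDKN1A, or p21, stood at 1911, 2339 and 2543 on day 3 and 4047, 4492 and 4330.4 on day 5 (log2 fold change 0.93, SE 0.096, adjusted p = 8.42e-07), with no overlap between the days. CDKN1B, or p27, rose by 0.52, and CDKN1C, CDKN2B and CDKN2D by 2.35, 1.17 and 0.54, the last not called once corrected. CDKN3, a phosphatase that peaks in mitosis, fell by 1.43, and CDKN2A, at −0.27, was not called without day 5 replicate 3, at −0.22.

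Mitotic genes fell too, with a median nearer to 0 than that of histones. Of 67 genes of mitosis and the spindle, 49 fell and 10 rose (median −0.57), and their share of reads was 1.07, 1.07 and 1.02% on day 3 and 0.853, 0.842 and 0.867% on day 5. CENPN, of the centromere, fell by 1.39, KIF18A, a kinesin that steadies chromosomes, by 1.26, MAD2L1, of the spindle checkpoint, by 1.23, and PTTG1, or securin, by 1.21. Of the genes whose windows are shown above, ZWINT fell by 1.14 and NCAPD2, a condensin subunit, rose by 1.16. DNA repair genes fell alongside. Of 35 genes of homologous recombination and the Fanconi pathway 26 fell and FANCF alone rose, at 0.50, but was not called without day 3 replicate 1 or 2 or day 5 replicate 2 or 3, at 0.38 to 0.45 (list median −0.67), with RAD51C, of the recombination machinery, at 4004, 3768 and 4404 on day 3 and 1429, 1282 and 1354 on day 5 (log2 fold change −1.58, SE 0.080, adjusted p = 9.07e-10). Of 7 mismatch repair genes (median −0.48) 6 fell and MLH3 rose by 0.25 (not called without day 3 replicate 2 or day 5 replicate 3, at 0.21 to 0.22, nor once corrected).

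**Figure D4:**
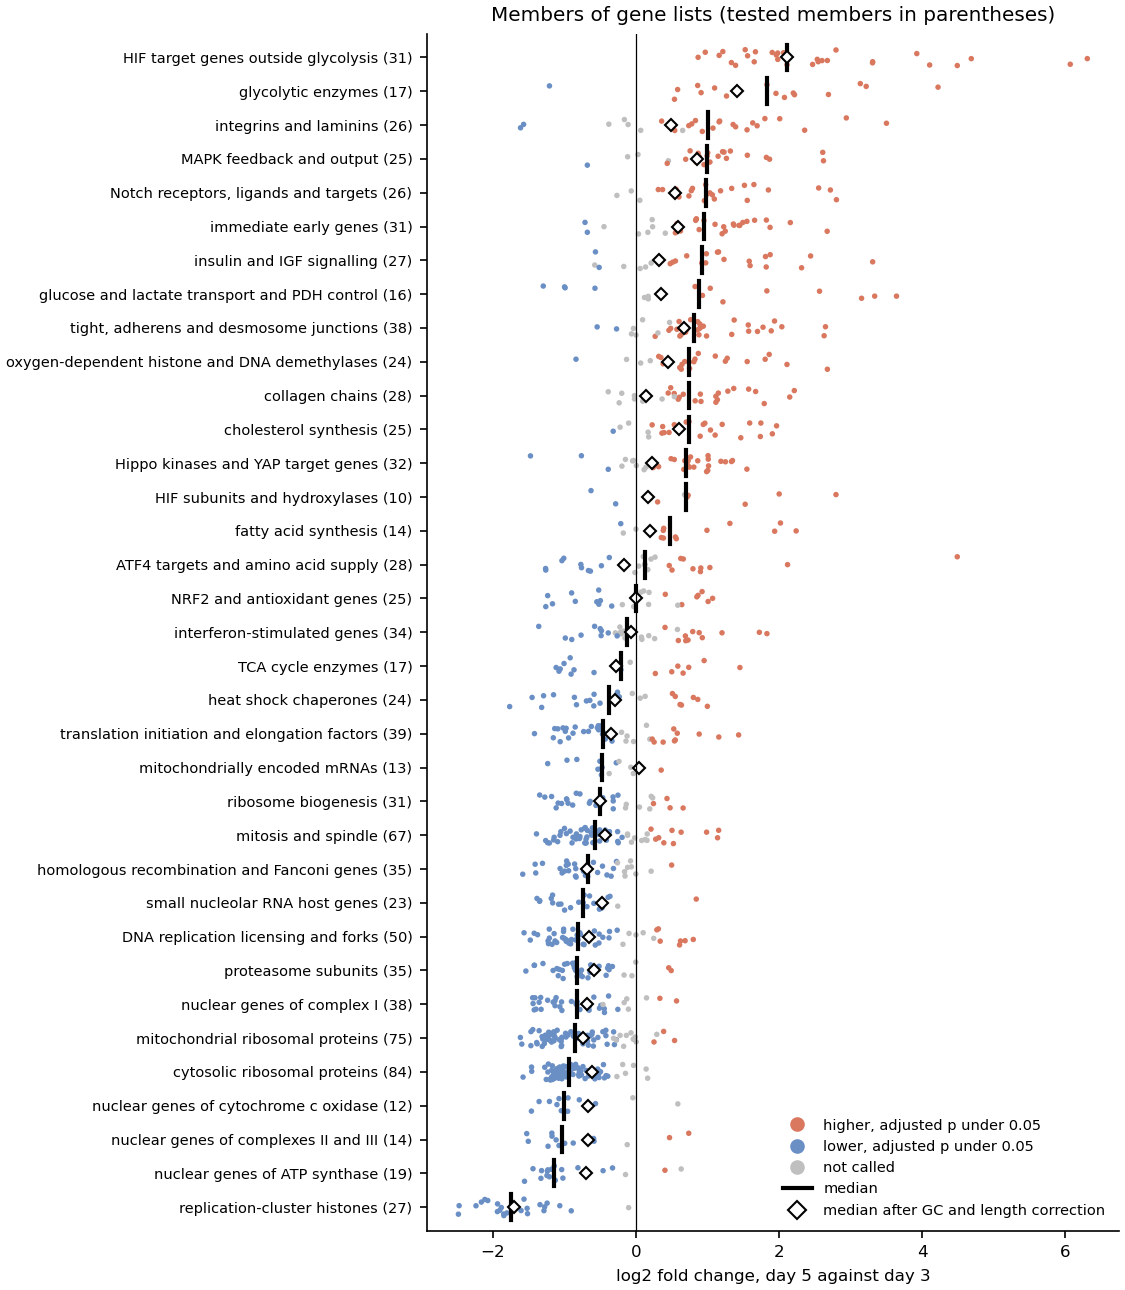
Log2 fold change, day 5 against day 3, of each tested member (points) of 35 gene lists, ordered by their medians (bars), with the median after correction for GC content and length (diamonds). HIF targets have the highest median, at 2.11, and histones the lowest, at −1.74, and the correction moves the medians of collagen chains and insulin and IGF signalling towards 0 but leaves those of HIF targets and histones near their place.

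Sterol and fatty acid synthesis rose. Of 25 genes of cholesterol synthesis and uptake 20 rose and ACAT2, the first enzyme of the pathway, fell by 0.32 (not called without day 5 replicate 3, at −0.26, nor once corrected; list median 0.74), and their share of reads was 0.158, 0.161 and 0.154% on day 3 and 0.297, 0.312 and 0.257% on day 5. INSIG1, an anchor of SREBP in the ER, stood at 1592, 1756 and 1619 on day 3 and 6439, 7249.6 and 5775 on day 5 (log2 fold change 1.96, SE 0.087, adjusted p = 2.66e-10). DHCR7, of the last steps, rose by 1.74. Of 14 genes of fatty acid synthesis 11 rose and ELOVL6 fell, by 0.21, but was not called without day 3 replicate 2 or day 5 replicate 1 or 3, at −0.23 to −0.14, nor with library totals (list median 0.47, corrected 0.20). FASN, the synthase, stood at 11683, 15070.3 and 16893 on day 3 and 62911, 60605 and 51971 on day 5 (log2 fold change 2.02, SE 0.12, adjusted p = 5.34e-09). ACSS2, which makes acetyl-CoA from acetate, rose by 2.24, SCD, which desaturates the product, by 1.94, and ACLY, which makes acetyl-CoA from citrate, by 1.31. Of 24 genes of lipid droplets and triglyceride (median 0.48) 15 rose and FABP5, ABHD5 and GPAM fell, by 1.36, 1.20 and 1.00. The phosphatidate phosphatases LPIN3 and LPIN1 rose by 1.39 and 1.38, and the lipase PNPLA2 by 1.33.

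Stress programmes did not move as units. GDF15, a secreted stress signal, stood at 572, 705 and 795 on day 3 and 2976, 3168 and 3169 on day 5 (log2 fold change 2.18, SE 0.10, adjusted p = 4.91e-10), and TIGAR, which lowers fructose 2,6-bisphosphate, fell by 1.59. ATF4 targets and amino acid supply had 10 of 28 higher and 10 lower (median 0.12, corrected −0.16, 0.06 to 0.19 without 1 library). Those that fell include ASNS, the asparagine synthetase, by 1.26, and SLC7A11, the cystine importer, by 1.26, while DDIT4 and STC2 of the same list are HIF targets too, STC2 rising by 2.12. Of 28 ER chaperone and unfolded protein response genes 12 rose and 10 fell (median 0.10, 0.05 to 0.14 without 1 library), with SYVN1, a ubiquitin ligase of the ER, at 1.47 and SEC61B, of the translocon, at −1.33.

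Of 24 heat shock chaperones and their factors, cytosolic and mitochondrial, 14 fell and 7 rose (median −0.38). HSPA8, the constitutive HSP70, stood at 110087, 115753 and 142357 on day 3 and 50151, 41947 and 42303 on day 5 (log2 fold change −1.45, SE 0.12, adjusted p = 1.15e-07). HSPE1, the mitochondrial cochaperonin, stood at 6115, 5772 and 6554 on day 3 and 1747, 1821 and 1857 on day 5 (log2 fold change −1.76, SE 0.074, adjusted p = 1.71e-10). No library of day 5 reached the day 3 values of either. NFE2L2, which encodes NRF2, fell by 0.52 (adjusted p = 1.06e-04), and of 25 NRF2 and antioxidant genes 7 rose and 10 fell (median 0.00, corrected 0.00, −0.12 to 0.09 without 1 library), and once corrected 10 were higher and 9 lower. TXN and SOD1 fell by 1.23 and 1.16. Of 16 iron genes 8 rose and 5 fell (median 0.23). The fallers were SLC40A1, the transferrin receptor TFRC, FBXL5, SLC11A2 and IREB2, of which SLC40A1 fell most, by 1.13, and TFRC by 0.97. HMOX1, which frees iron from heme, rose by 0.87. Of 4 metallothioneins tested only MT1E was called, at −0.76.

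Lysosome and autophagy genes had medians a little above 0, near the 0.12 of all tested protein-coding genes. Of 41 lysosome and proton pump genes 19 rose and 14 fell (median 0.21, corrected 0.01, 0.32 without day 3 replicate 3), with GRN, the progranulin gene, at 784, 1024 and 1219 on day 3 and 4553, 4372 and 4095 on day 5 (log2 fold change 2.13, SE 0.12, adjusted p = 2.7e-09), and the hydrolases GAA and TPP1 rising by 1.69 and 1.62. Of 35 autophagy and mitophagy genes 17 rose and 8 fell (median 0.18). Next to BNIP3L and BNIP3, the kinase ULK1, which starts autophagy, rose by 1.50 and PINK1, which marks damaged mitochondria, by 1.50.

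Genes of cell contact rose as a group. Of 38 genes of tight, adherens and desmosome junctions 30 rose and 2 fell (median 0.81). CDH1, or E-cadherin, stood at 572, 669 and 672 on day 3 and 3787, 4024 and 4009 on day 5 (log2 fold change 2.63, SE 0.082, adjusted p = 9.08e-12). JUP, plakoglobin of desmosomes and adherens junctions, stood at 1320.5, 1749 and 1935 on day 3 and 10318, 10797 and 9894 on day 5 (log2 fold change 2.65, SE 0.11, adjusted p = 1.74e-10). CLDN4, a tight junction claudin, stood at 1051, 1241 and 1508 on day 3 and 4963, 5514 and 4995 on day 5 (log2 fold change 2.04, SE 0.11, adjusted p = 1.33e-09). The days did not overlap in any of these. NECTIN3 fell by 0.54 and CTNNB1, or beta-catenin, by 0.27, the latter not called without day 5 replicate 2, at −0.26. EPCAM was not called, at 0.00 (adjusted p = 0.981), but was once corrected, at 0.36. Of 14 keratin and EMP genes 9 rose and KRT23 fell, by 0.37 (median 0.99), with KRT19 and KRT15, keratins of simple and basal epithelia, at 1.98 and 1.91. Of 14 intestinal differentiation genes that passed the minimum, out of 39 in the table (median 0.69), 9 rose and TFF1 and CA2 fell, by 1.01 and 0.56. CA2 was not called once corrected, and TFF1 was not called without day 3 replicate 1, 2 or 3 or day 5 replicate 1 or 3, at −1.16 to −0.80, nor by edgeR or DESeq2. KLF4, a factor of intestinal maturation, rose by 2.16.

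Contacts with the matrix rose too. Of 26 integrin and laminin genes 19 rose and ITGAE and LAMA2 fell, by 1.61 and 1.57 (median 1.00, corrected 0.49). ITGB4, the integrin of hemidesmosomes, stood at 2295, 2652 and 2596 on day 3 and 26736, 28733 and 29812 on day 5 (log2 fold change 3.50, SE 0.081, adjusted p = 3.72e-13). LAMB3, a chain of laminin 332, the ligand of that integrin, stood at 263, 305 and 428 on day 3 and 2362, 2583 and 2562 on day 5 (log2 fold change 2.94, SE 0.13, adjusted p = 3.72e-10). ITGA3, an integrin chain that also binds it, rose by 2.01. Of 28 collagen chains 20 rose and none fell (median 0.74), and once corrected 10 were higher and 2 lower (median 0.14). Largest were the rises of COL13A1 by 2.21 and COL18A1 by 2.15. LOXL2, which cross-links collagen, stood at 263, 286 and 323 on day 3 and 2584, 3173 and 3298 on day 5 (log2 fold change 3.37, SE 0.11, adjusted p = 9.08e-12).

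Of 12 tested genes linked with mesenchymal transition 6 rose and 3 fell (median 0.50, corrected 0.28). Fibronectin (FN1) rose by 1.81 and MMP14, a membrane metalloprotease, by 1.86, but the repressors of E-cadherin ZEB1 and ZEB2 fell by 0.78 and 1.53, SPARC fell by 1.06 but was not called without day 3 replicate 1 or day 5 replicate 2, at −0.92 to −0.76, nor by DESeq2, and vimentin (VIM) was not called, at −0.10. Of 9 hyaluronan genes (median 1.00, corrected 0.60) 6 rose and HMMR and UGDH fell, by 0.84 and 0.24. HAS3, a hyaluronan synthase, rose by 1.56, and its receptor CD44 by 1.13. CEMIP2, at 0.27, was not called without day 5 replicate 2, at 0.23, nor once corrected. UGDH was not called without day 3 replicate 2 or day 5 replicate 2, at −0.21, and turned to 0.04 once corrected. Of 11 S100 genes (median 0.06, corrected 0.29, 0.00 to 0.16 without 1 library) 5 rose and 3 fell, S100A10 rising by 1.21. Of 17 genes with tubulin symbols, not all of them tubulins, 10 rose (median 0.40, corrected 0.07, 0.26 to 0.49 without 1 library). TUBGCP4, which is not itself a tubulin, fell by 0.20, but was not called without day 3 replicate 2 or day 5 replicate 2 or 3, at −0.20 to −0.16, nor with library totals. Of 15 protocadherins tested (median 0.41, corrected −0.03) 4 rose and PCDH7 fell, by 0.48, with PCDH1 the largest riser measured well, at 1.92.

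Most Notch genes rose. Of 26 receptors, ligands and targets 23 rose and none fell (median 0.98), and once corrected 19 were higher and 4 lower (median 0.55). NOTCH3, a receptor, stood at 291, 344 and 326 on day 3 and 2167, 2139 and 2397 on day 5 (log2 fold change 2.80, SE 0.090, adjusted p = 1.11e-11). NOTCH1 rose by 1.65, NOTCH2 by 1.52 and the ligand JAG2 by 1.34. The insulin and IGF list had 20 of 27 higher and PIK3R3 and GRB14 lower, at −0.56 and −0.51, the latter not called once corrected (median 0.92, corrected 0.32). IGF1R, the IGF receptor, stood at 509, 529 and 527 on day 3 and 1760.1, 1902 and 1836 on day 5 (log2 fold change 1.81, SE 0.077, adjusted p = 1.88e-10). IGF2, its ligand, rose by 2.44, the adaptor IRS2 by 2.31 and the insulin receptor INSR by 1.82. OLFML2A, an olfactomedin-like secreted protein, stood at 129, 144 and 164 on day 3 and 703, 663 and 697 on day 5 (log2 fold change 2.24, SE 0.11, adjusted p = 8.51e-10). The study chose NOTCH3, IGF1R and OLFML2A partly for AGO2 binding sites and partly for higher expression on day 7 than on day 3. That choice used the day 3 libraries compared here, so the rise of these genes is not independent evidence of a direction. The study also measured them by RT-qPCR, which is not part of these data.

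Genes that answer growth factor signals were mostly higher. Of 25 genes of MAPK feedback and output 21 rose and FOS fell (median 0.99). PLAUR, the urokinase receptor, stood at 507, 499 and 551 on day 3 and 3022, 3246 and 3256 on day 5 (log2 fold change 2.61, SE 0.078, adjusted p = 5.18e-12). DUSP4, a phosphatase that switches MAPK off, rose by 1.87, the AP-1 subunit FOSL1 by 1.82 and the ephrin receptor EPHA2 by 1.56. Of 31 immediate early genes, which partly are the same, 23 rose and FOS and FOSB fell, by 0.68 and 0.71 (median 0.95, corrected 0.59). FOSB was not called without day 3 replicate 2 or 3 or day 5 replicate 1 or 2, at −0.73 to −0.33, nor by DESeq2. The list also held FOSL2 at 673, 865 and 948 on day 3 and 5152, 5006 and 5557 on day 5 (log2 fold change 2.67, SE 0.11, adjusted p = 1.12e-10) and MAFF at 1.87. Of 19 genes of the EGF receptor family 10 rose and NRG4, LRIG3 and NRG1 fell, by 0.92, 0.64 and 0.58 (median 0.33, corrected 0.07). EGFR rose by 1.90, ERBB2 by 1.20, ERBB3 by 0.95 and ERRFI1, which inhibits the receptors, by 2.15.

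Of 28 TGF-beta, BMP and ID genes 18 rose and ID3, BMPR1A and BMP4 fell, by 0.59, 0.48 and 0.39 (median 0.43), with the ligand TGFB1 at 1.71 and LTBP3, which stores it in the matrix, at 1.66. Of 21 Wnt and beta-catenin genes 14 rose and AXIN2 and DKK1 fell, by 0.40 and 0.21 (median 0.92, corrected 0.39). DKK1 was not called without day 3 replicate 2 or 3 or day 5 replicate 1 or 2, at −0.24 to −0.15, nor with library totals or by DESeq2, and turned to 0.11 once corrected. SOX9, an intestinal progenitor factor, stood at 1239, 1829 and 1640.2 on day 3 and 6743, 7445 and 7855 on day 5 (log2 fold change 2.24, SE 0.12, adjusted p = 1.12e-09), and TCF7L1 and the ephrin receptor EPHB2 rose by 1.43 and 1.21. AXIN2, which feeds back on the pathway and is among its most direct targets, thus moved against most of the list.

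The density-sensing Hippo pathway was described by its kinases and by targets of its effector YAP. YAP1 itself was higher on day 5, at 3722, 4173 and 3473 on day 3 and 6041, 6211 and 6558 on day 5 (log2 fold change 0.73, SE 0.081, adjusted p = 1.73e-06). Of 32 genes 22 rose and 3 fell (median 0.70, corrected 0.22). AMOT, which holds YAP at junctions, rose by 1.55, WWTR1, the YAP paralog TAZ, by 1.34, and the targets NT5E and AXL by 1.35 and 1.25. The fallers were ANKRD1 and CCN1, which are widely used YAP targets, by 1.47 and 0.76, and the kinase gene STK3, by 0.39. ANKRD1 was not called without day 5 replicate 2, at −1.20, nor by DESeq2 or once corrected, CCN1 was not called by DESeq2, and STK3 was not called once corrected. ANKRD1 stood at 11.4, 11.1 and 12.8 on day 3 and 6.51, 2.14 and 3.11 on day 5. It thus passed the minimum through day 3 alone and had to differ, so its fall is not a result. CCN1 moved against most of the list, at 562, 810 and 1423 on day 3 and 552, 475 and 506 on day 5.

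Genes of innate and antigen-presenting immunity were mixed. Of 34 tested interferon-stimulated genes 11 rose and 10 fell (median −0.12, corrected −0.06, −0.16 to 0.06 without 1 library and above 0 without day 3 replicate 1 or day 5 replicate 2 or 3), IFITM3 by 1.20 and IFIT5 at −0.99. Of 18 genes of MHC class I presentation 11 rose and 4 fell (median 0.39, corrected 0.23). HLA-E rose by 1.20 and the peptide loader TAPBP by 1.62, whereas B2M, the light chain of the same complex, fell by 0.91, as did PSMB9, ERAP2 and PSME2, by 1.00, 0.89 and 0.65. HLA genes are near copies of each other and vary in sequence, so reads can be lost or split among them. Of 27 NF-kappaB feedback and chemokine genes (median 0.25, 0.25 to 0.39 without 1 library) 13 rose and CXCL8, NFKBIZ, CD83, SOD2 and NFKBIA fell, CXCL8 most, by 1.06, though it was not called once corrected, at −0.36. The subunits NFKB2 and RELA rose by 1.75 and 1.41. TNFAIP2, at 0.64, turned to −0.14 and was not called once corrected.

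The machinery of RNA silencing, which the study is about, rose by modest amounts. Of 37 genes 21 rose and 7 fell (median 0.26, corrected 0.16). AGO2, the slicing Argonaute, stood at 2764, 2964 and 3425 on day 3 and 5754, 5738 and 5906 on day 5 (log2 fold change 0.93, SE 0.083, adjusted p = 1.82e-07). TNRC6B, a scaffold that links Argonaute to deadenylation, stood at 3610.3, 3997 and 3850.2 on day 3 and 8341, 8559 and 8775 on day 5 (log2 fold change 1.16, SE 0.072, adjusted p = 5.59e-09). For both genes the days did not overlap. CNOT3, of the deadenylase complex, rose by 0.95, and ZSWIM8, of the ligase that destroys Argonaute on some target RNAs, was at 0.89 but not called once corrected, at 0.09. TNRC6A was not called, at −0.06 (adjusted p = 0.482), but was once corrected, at −0.37, and DICER1, which cuts miRNA precursors, fell by 0.32 (adjusted p = 9.72e-04). TNRC6A and DICER1 were chosen after their values were seen.

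Splicing genes leaned down with exceptions. Of 44 spliceosome and snRNP genes 15 rose and 26 fell (median −0.42). SNRPG and SNRPE, small Sm proteins, fell by 1.67 and 1.37, while PRPF8, the large protein at the catalytic core, rose by 1.57 and SF3A1 by 1.31. Of 28 serine-arginine factors and CLK kinases 7 rose and 16 fell (median −0.25, corrected −0.13), SRSF7 by 1.26 and SRSF3 by 1.13, with SRRM2 and CLK3 rising by 1.22 and 1.02.

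Of 18 DNA methylation and Polycomb genes 11 rose and EED, BMI1, EZH2, HELLS and RNF2 fell, EED by 0.87 (median 0.51, corrected 0.06), and JARID2, which guides Polycomb, rose by 1.68. Of 17 clock genes 10 rose and CRY1 and NR1D2 fell, by 0.47 and 0.22 (median 0.67, corrected 0.31). NR1D2 was not called without day 3 replicate 2 or day 5 replicate 1 or 2, at −0.20, nor with library totals or once corrected. NR1D1, the repressor REV-ERB alpha, stood at 608, 786 and 834 on day 3 and 3464, 3745 and 3706 on day 5 (log2 fold change 2.30, SE 0.10, adjusted p = 3e-10), PER1 rose by 1.96 and DBP by 1.37. Clock genes also change with time of day, and the hour of harvest is not given in the sources used here. Zinc finger (ZNF) genes leaned down, with 111 of 376 higher and 156 lower (median −0.09, corrected −0.15). Solute carriers had 101 of 246 higher (41.1%) and 65 lower (26.4%), with a median of 0.15. That is near the 40.4% higher and 30.4% lower of all tested protein-coding genes. Once corrected, 67 solute carriers were higher and 81 lower (median −0.07).

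Among RNAs that encode no protein, more snoRNA, misc_RNA and snRNA genes fell than rose. Of 144 snoRNA genes tested 2 rose and 90 fell (median −0.86, corrected −0.18), of 313 misc_RNA genes, which are mostly copies of 7SK, 7SL, Y and vault RNA, 8 rose and 148 fell (median −0.70, corrected −0.32), and of 146 snRNA genes 8 rose and 36 fell (median −0.21, turning to 0.53 once corrected). Processed pseudogenes fell in 784 and rose in 138 of 1984 cases (median −0.47, corrected −0.086), while of 2736 lncRNA genes 475 were higher and 426 lower (median 0.02, corrected 0.26). In reads, misc_RNA took 2.41, 2.11 and 2.76% on day 3 and 1.07, 1.00 and 0.992% on day 5, and snoRNA and scaRNA took 0.182, 0.180 and 0.183% and 0.103, 0.0981 and 0.101%. Of 23 small nucleolar RNA host genes 21 fell and SNHG28 rose, by 0.84, but was not called without day 3 replicate 2 or day 5 replicate 1, 2 or 3, at 0.47 to 0.89, nor by DESeq2 (list median −0.74, corrected −0.48), SNHG1 falling most, by 1.38. The snoRNA with the largest fall measured well was a U3 gene on chromosome 17, at 649.7, 671 and 842 on day 3 and 129, 150.1 and 209 on day 5 (log2 fold change −2.16, SE 0.16, adjusted p = 2.48e-08). RNVU1-14, a variant U1 snRNA, fell by 2.04, and RN7SKP71, a 7SK pseudogene, by 1.73. Such genes have many near copies, so the counts of single copies are uncertain.

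Of 22 well known long noncoding RNAs 6 rose and 13 fell (median −0.39). NEAT1, the scaffold of paraspeckles, rose by 1.54 (adjusted p = 7.85e-08), RN7SK, which holds back the elongation factor P-TEFb, fell by 1.34, and MALAT1 was not called, at −0.10 (adjusted p = 0.614). MIR663AHG, the host of MIR663A on chromosome 20, had the largest rise of the list and stood at 9053, 9383 and 6721 on day 3 and 280957, 299509 and 253153 on day 5 (log2 fold change 5.06, SE 0.13, adjusted p = 9.22e-13). Its share of the reads on genes went from 0.0266, 0.0268 and 0.0173% on day 3 to 0.825, 0.880 and 0.726% on day 5. MIR3648-2, annotated at chr21:8986999-8987178 of GRCh38, stood at 5414, 4667 and 4105 on day 3 and 126771, 129363 and 120222 on day 5 (log2 fold change 4.74, SE 0.10, adjusted p = 1.54e-13). The neighbouring gene ENSG00000264063 rose by 4.71. ANKRD30BL, whose locus on chromosome 2 holds MIR663B, stood at 376, 405 and 319 on day 3 and 12398, 14977 and 13397 on day 5 (log2 fold change 5.21, SE 0.096, adjusted p = 5.85e-14). All 3 day 5 libraries lay far above day 3 in each of these loci. Their sequences have near copies elsewhere in the genome, these libraries do not hold mature miRNAs as such, and which copy the reads came from was not tested. The rises are therefore those of reads assigned to these loci. Whether the loci themselves were transcribed more was not tested.

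Shares of reads do not depend on the scale between libraries. Apart from those given above, protein-coding genes held 87.4, 88.4 and 87.5% on day 3 and 90.8, 91.2 and 91.3% on day 5, and genes of DNA replication 0.537, 0.556 and 0.563% and 0.436, 0.397 and 0.413%. For 16 of 17 classes the 3 libraries of a day lay all above or all below the other 3, which gives p = 0.1 in the two-sided exact permutation test, the smallest that 3 libraries against 3 allow, and 0.106 after adjustment over the 17. The lncRNA share overlapped between the days (exact permutation p = 0.2).

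**Figure D5:**
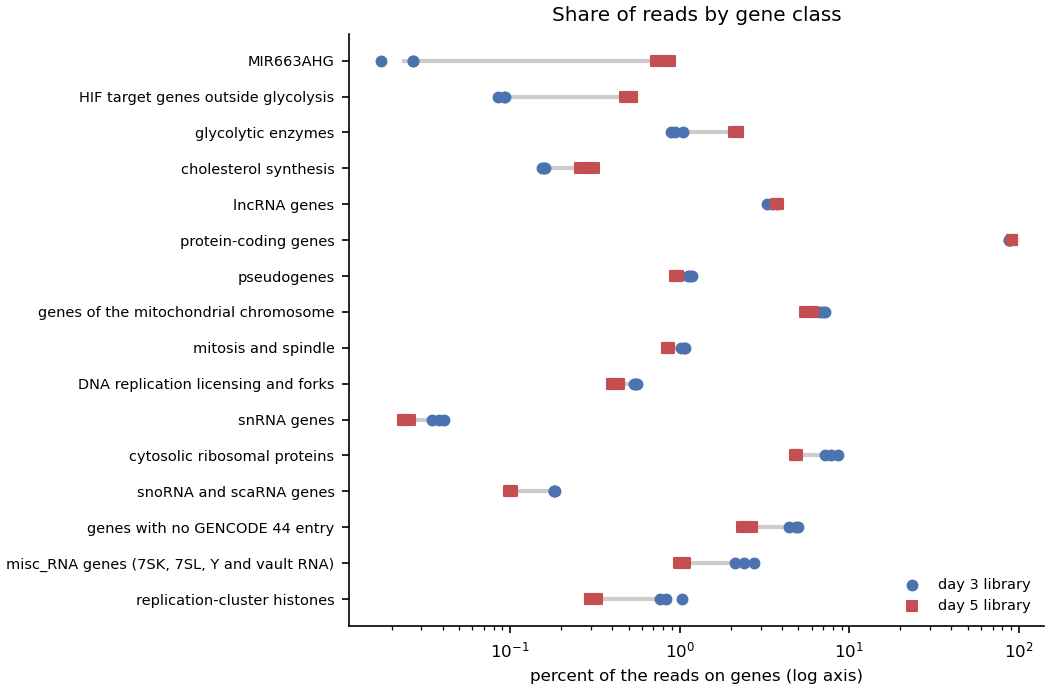
Percent of the reads on genes (log axis) taken by each class of genes in every library of day 3 (blue circles) and day 5 (red squares), ordered by the ratio of the days. The share of HIF targets went from 0.0902% to 0.507% on average and that of histones from 0.878% to 0.306%, and the lncRNA share differs least between the days together with that of protein-coding genes.

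A view that does not rest on chosen lists groups protein-coding genes by the letters that open their symbols. Of 95 such families with at least 15 tested genes, 54 had a median above 0. The lowest medians were those of histones (symbols opening with H; 33 of 39 lower, median −1.56), MRPL (39 of 47 lower, −0.98), COX (16 of 21 lower, −0.95), RPL (43 of 48 lower, −0.92), RPS (34 of 42 lower, −0.84) and TIMM, the mitochondrial import complexes (13 of 15 lower, −0.74). The highest were those of myosins (MYO; 13 of 19 higher, 0.90), semaphorins (SEMA; 12 of 17, 0.82), lysine demethylases (KDM; 15 of 18, 0.79), collagens (COL; 20 of 28, 0.75) and the guanine nucleotide exchange factors ARHGEF (18 of 23, 0.61). Corrected for GC content and length, the medians of MYO, SEMA, KDM, COL and ARHGEF were 0.21, 0.27, 0.62, 0.14 and 0.22, and those of histones, MRPL, COX, RPL, RPS and TIMM −1.55, −0.81, −0.51, −0.60, −0.59 and −0.76.

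Genes often used as references moved as well. Of 18, 7 rose, 6 fell and 5 were not called. POLR2A rose by 1.72, PGK1 by 1.41, SNRNP200 by 1.24, ACTB by 1.23, GAPDH by 0.91, SDHA by 0.74 and GUSB by 0.50. TFRC, B2M, PPIA, RPLP0 and RPL13A fell by 0.52 to 0.97. Among those not called were YWHAZ, at 0.12, ZMYM4, at −0.07, HPRT1, at −0.07, and TBP, at −0.04. HPRT1 stood at 2239, 2372 and 2279 on day 3 and 2133, 2042 and 2406 on day 5, with the days overlapping. Once corrected, YWHAZ, ZMYM4 and HPRT1 were called, at 0.22, −0.18 and 0.45.

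The labelled cell type was checked against markers. All 14 epithelial markers were in the table and 12 passed the minimum, of which 11 rose, and their summed level was 1310 to 1640 CPM on day 3 and 3480 to 3580 CPM on day 5. Of 8 fibroblast markers found 4 passed, with a summed level of 15.9 to 19.2 CPM on day 3 and 37.0 to 39.9 CPM on day 5, COL1A1 rising by 1.12. The 7 endothelial markers summed to 3.86 to 4.34 and 7.69 to 9.45 CPM, the 8 leukocyte markers to 0.723 to 1.06 and 1.01 to 1.25 CPM, and the 7 erythroid markers to 4.89 to 6.38 and 4.13 to 4.52 CPM. None of these lists was at 0 in every library for any member in the table, and the levels of the non-epithelial lists stayed far below the epithelial one on both days.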

How the data were processed

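Whole transcriptome RNAseq was done on 3 libraries of day 3 and 3 of day 5 of HCT116 cells. Per the labels and the study's methods, total RNA was depleted of ribosomal RNA, made into stranded libraries with adapters that carry unique molecular identifiers, and sequenced on a NovaSeq. Whether those identifiers were used to collapse copies is not given in the sources used here. The submitters' processing notes name bcl2fastq, FastQC 0.11.8 and MultiQC 1.7. The authors mapped reads in CLC Genomics Workbench to the ENSEMBL annotation of hg38, counting the reverse strand only. The deposited values are a signal per gene, reads divided by 1 factor per library. The study's methods name TMM scaling for differential expression, and whether it gave these factors is not stated. All values were whole multiples of that factor within a tolerance of 0.01 reads, so the reads could be recovered. Columns of the authors' own comparison (mean, fold change, its error, test statistic and p-values) were not used.

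Genes reaching a value of 10 in 3 or more libraries were tested with limma 3.58.1 (lmFit, eBayes with trend) in R 4.3.3 on log2(value + 1), two-sided, with p-values adjusted by Benjamini and Hochberg over all tested genes and a threshold of 0.05. Every adjusted p in the text is limma's. The same settings called 160 of 194 genes changed 2-fold (82.5%) in data simulated for this comparison with 19821 genes tested, with 11 false calls. The simulation changed only a small part of the genes and held no drift by GC content or length. In the libraries 59.9% of genes were called, so the simulated rates need not hold for them. The alternatives were library totals, TMM factors, filters, a pseudocount of 0.1, the replicate block, leaving out each library, edgeR 4.0.16 and DESeq2 1.42.0 on the recovered reads, and a loess correction of each library for transcript GC content and length. Read shares were compared with a two-sided exact permutation test. CPM values are recovered reads scaled to the reads on genes of each library. Genes were annotated with GENCODE 44 on GRCh38, and summaries used pandas 2.3.3, scipy 1.17.1, numpy 2.4.6 and matplotlib 3.10.9 under Python 3.11.15.

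Named genes are the 12 largest rises and the 12 largest falls among called protein-coding genes with no overlap between the days and at least 10 CPM, up to 4 members of each list with the largest change at 10 CPM or more, regulators of the HIF, MYC, YAP and NRF2 pathways, IGF1R, NOTCH3 and OLFML2A, the reference genes, and the 3 largest rises and falls of other biotypes. Some genes and lists that meet it are not reported here. Genes outside this rule were chosen after their values were seen. The members and lists were chosen with earlier results of these data known. Reads on genes ranged from 27470978 to 56689369 per library, and since the labels call the replicates biological without saying how they were kept apart, p-values measure the spread between these libraries, which may be technical.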

Additional observations from a re-analysis of the deposited data

How the results depend on the processing

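Under 16 alternatives, each changing 1 choice, the number of genes called ranged from 9911 to 12363 beside 12055, lowest with a minimum value of 100, where 12913 genes were tested, and highest without day 3 replicate 3. The other settings gave 12033 with library totals, 12195 with TMM factors, 12117 of 38055 without a filter, 12016 with a pseudocount of 0.1, 12280 by edgeR, 10977 by DESeq2, 10584 after the correction for GC content and length and 11450 by limma without a trend, an alternative chosen after seeing the data. Leaving out 1 library gave 10842 to 12363 genes called, 3586 to 3779 of them at least 2-fold, and 51.4% to 52.9% of the calls higher on day 5. The count at 2-fold, 3696, was 2423 with the minimum of 100, which tests fewer genes, and 2018 after the correction. The share of calls that were higher, 52.0%, was 56.5% with library totals and turned to a minority only after the correction, at 48.4%. Read shares of the 17 gene classes kept their direction under all alternatives run for them. Replicate numbers are shared between the days, but the deviations of libraries with the same number correlated at −0.111, −8.8e-05 and −0.033 over 11860 genes, so the numbers were not taken to pair the samples. A fit with the number as a replicate block gave 11865 calls. No library correlated best with its own number.

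Of 71 list medians, only that of NRF2 and antioxidant genes, at 0.00, changed sign with TMM factors, edgeR or DESeq2, and none did with library totals. It was −0.12 without day 3 replicate 1 and up to 0.090 without day 3 replicate 3. Reference genes and metallothioneins were not among the 71. Their medians, −0.06 and −0.05, changed sign with library totals and after the correction. The median of interferon-stimulated genes, −0.12, was 0.083 with the minimum of 100 and −0.16 to 0.063 with 1 library left out, above 0 without day 3 replicate 1 (0.063), day 5 replicate 2 (0.062) or day 5 replicate 3 (0.026). After the correction the medians of ATF4 targets, mitochondrially encoded mRNAs, protocadherins and solute carriers turned to −0.16, 0.046, −0.027 and −0.070. Of 282 genes called and given with values, 42 lost the call or turned under 1 or more alternatives, 28 of them under the correction and 24 when 1 library was left out, and 7 genes not called were called under an alternative. Turned by the correction were ATP5F1D (−0.17), DKK1 (0.11), HPRT1 (0.45), MRPS2 (−0.024), POLR1A (−0.049), TAF1C (−0.48), TNFAIP2 (−0.14), UBTF (−0.17) and UGDH (0.042), of which HPRT1 and TAF1C were called in the new direction. The cause of these changes was not tested. With 3 libraries a day and 27470978 to 56689369 reads on genes in each, genes near the minimum of 10 rest on a few reads per library.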

Other observations

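A block of olfactory receptor genes on chromosome 11, next to the beta-globin genes, gave reads in these colon cells. Olfactory receptors are odour sensors of the nose, and 8 of the 97 in the table passed the minimum, of which 1 rose and 5 fell (median −0.52, corrected −0.12). Their summed level was 167 to 224 CPM on day 3 and 135 to 144 CPM on day 5. OR51I1 (chr11:5440570-5441514) stood at 2506, 2255 and 2088 on day 3 and 1422, 1358 and 1376 on day 5 (log2 fold change −0.72, SE 0.081, adjusted p = 2.08e-06), with no overlap between the days. OR51B5 (chr11:5303444-5505652) stood at 3247, 3166 and 2379 on day 3 and 1946, 2020.3 and 1985 on day 5 (log2 fold change −0.55, SE 0.10, adjusted p = 2.81e-04), and OR51B4 (chr11:5301014-5301946) at 1629, 1557 and 1846 on day 3 and 1173, 1267 and 1116 on day 5 (log2 fold change −0.50, SE 0.086, adjusted p = 1.36e-04). Once corrected for base composition and length, OR51I1 was still called, at −0.36, and OR51B5 and OR51B4 were not, at −0.14 and −0.03. OR51I1 lies within the annotated span of OR51B5 on the same strand, so how the reads were divided between them is uncertain. The pseudogene OR51A10P, which lies in the same span, stood at 2902, 2549.9 and 2403 on day 3 and 1509, 1344 and 1356 on day 5 (log2 fold change −0.90, SE 0.086, adjusted p = 3.76e-07). HBB, the adult beta-globin gene of that region, stood at 12.3, 13.6 and 11.3 on day 3 and 10.8, 9.65 and 13.5 on day 5, with the days overlapping. These genes were chosen after their values were seen.

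For 841 tested gene identifiers GENCODE 44 held no entry, so they are in no list. Of these, 198 were higher and 155 lower on day 5. All identifiers of the table without an entry, 2458 in number and mostly untested, held 4.88, 4.42 and 4.98% of the reads on genes on day 3 and 2.68, 2.33 and 2.45% on day 5.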
